A study of Mus musculus with 2 samples.

Results

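Rab GTPases are the small G proteins that give each membrane compartment of a cell its identity. A Rab gene was taken as a gene of the deposited count matrix named Rab with a number and at most further lower-case letters or a digit, and with at least 50 UMIs (unique molecular identifiers, 1 for each captured transcript) over all cells. Of the 20282 genes in the matrix, 41 met this rule, and 12 more names of the same form had fewer UMIs. Just inside the limit lay Rab6b with 58 UMIs and Rab13 with 72, and just outside lay Rab38 and Rab31 with 45 UMIs each and Rab20 with 43. Another 12 names that continue with a further word, such as Rab11fip1, Rab3gap1, Rab3ip and the antisense Rab10os, are not Rab GTPases and were left out.

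Thymocytes were taken at 6 weeks of age from 5 mice with the floxed allele alone, Cdc42f/f, called WT, and from 5 mice that also carry the Cre, Cdc42f/f CD4Cre, called KO. Each genotype gave 1 droplet library of transcript 3′ ends, made from the pool of its mice. The floxed Cdc42 allele is thus shared by both genotypes, and only the KO mice carry the Cre, which is driven from the CD4 promoter and removes exon 2 of Cdc42 from the double-positive (DP) stage onward, whereas cells that never expressed CD4 keep the gene. With 1 library per genotype no difference between them had a replicate check, so none was tested, and every interval given here is an exact 95% interval for counting error only. The study asked how Cdc42 shapes the microvilli and vesicles of T cells, and the Rab genes are set out here along thymocyte maturation and between the libraries.

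A Rab is switched on when an exchange factor (GEF) loads it with GTP and off when a GTPase-activating protein (GAP) speeds up hydrolysis. A GDP dissociation inhibitor (GDI) carries the inactive, prenylated Rab through the cytosol, and the active Rab recruits effectors such as tethers and motor adaptors. In T cells, Rabs are known to deliver recycling T cell receptors to the immunological synapse and to carry lytic granules to the plasma membrane.

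The promoters of 5 transcription starts are shown because Rab27a, Rab33b and Rab19 are among the members named below for a difference between the libraries or stages, and Rab14 is an abundant member to set beside them. Each is the run of 250 bases before the start as RefSeq gives it on GRCm38.p6, written along the gene's strand. Capitals mark the GC box letters GGGCGG on either strand. Rab27a has a start with its promoter at chr9:73044560-73044809 (plus strand) and another at chr9:73063898-73064147 (plus strand), Rab33b lies at chr3:51483716-51483965 (plus strand), Rab19 at chr6:39381103-39381352 (plus strand) and Rab14 at chr2:35201121-35201370 (minus strand).
Rab27a first start: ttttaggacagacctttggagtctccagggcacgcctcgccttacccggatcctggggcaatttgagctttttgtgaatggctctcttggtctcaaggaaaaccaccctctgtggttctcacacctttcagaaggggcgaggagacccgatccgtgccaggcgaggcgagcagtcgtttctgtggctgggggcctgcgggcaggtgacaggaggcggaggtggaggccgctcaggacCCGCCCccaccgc
Rab27a second start: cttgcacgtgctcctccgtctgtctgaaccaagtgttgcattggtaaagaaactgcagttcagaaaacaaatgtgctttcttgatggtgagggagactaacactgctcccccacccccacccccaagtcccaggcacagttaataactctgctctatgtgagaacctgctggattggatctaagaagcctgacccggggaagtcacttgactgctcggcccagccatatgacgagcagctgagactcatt
Rab33b: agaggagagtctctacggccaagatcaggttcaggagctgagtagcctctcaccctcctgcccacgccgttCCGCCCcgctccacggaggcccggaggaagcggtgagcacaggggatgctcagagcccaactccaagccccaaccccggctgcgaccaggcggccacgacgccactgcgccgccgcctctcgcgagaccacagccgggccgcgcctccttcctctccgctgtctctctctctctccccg
Rab19: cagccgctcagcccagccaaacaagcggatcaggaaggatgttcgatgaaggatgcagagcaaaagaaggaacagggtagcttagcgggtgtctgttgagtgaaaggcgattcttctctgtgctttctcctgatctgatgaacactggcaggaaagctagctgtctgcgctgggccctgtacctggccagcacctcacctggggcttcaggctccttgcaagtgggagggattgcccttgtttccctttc
Rab14: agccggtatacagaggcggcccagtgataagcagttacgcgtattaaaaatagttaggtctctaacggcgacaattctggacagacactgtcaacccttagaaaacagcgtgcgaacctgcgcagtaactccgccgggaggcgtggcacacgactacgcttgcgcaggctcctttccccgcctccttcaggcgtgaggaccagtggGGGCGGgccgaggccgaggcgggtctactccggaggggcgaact
These runs held 14 CpG dinucleotides at the first Rab27a start, 5 at the second, 23 at Rab33b, 6 at Rab19 and 23 at Rab14. A GC box stood in the first Rab27a promoter, in Rab33b and in Rab14, whereas the second Rab27a promoter and Rab19 held none. The RefSeq table had windows of 300 bases, with 50 bases after the start, for 35 of the 41 Rab genes (43 windows). Their median was 24 CpGs per window (range 3 to 45) against 7 over all 32851 windows. The letters GGGCGG, searched on both strands, stood in 69.8% of the Rab windows and in 35.7% of all windows, and TATAAA in 2.33% against 13.6%. CCAAT stood in 46.5% against 37.4%, and TGTGGT in 18.6% against 16.8%. The Rab genes had reached 50 UMIs in these cells, whereas the windows of all 27025 genes were not held to that minimum. The contrasts are thus not matched for expression and are no result about Rabs as a family. These matches describe letters in a window, and which start a transcript came from cannot be read from 3′ counts.

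Cells were grouped by the deposited clusters and named by leading genes, as the Rag1 stage (resting DP cells, 3636 WT and 4641 KO cells), the Cd5 stage (signalled DP cells, 535 and 843), the Itm2a stage (early single-positive cells, 479 and 316) and the Ms4a4b stage (mature single-positive cells, 332 and 396). The proliferating clusters and the small Myl10, Cd74 and Apoe clusters were kept apart. The libraries held 29706197 (WT) and 37920214 (KO) UMIs in 6115 and 7568 cells, and 17 cell barcodes occurred in both. Cdc42 itself was read at 358 CPM (counts per 1e+06 UMIs of the stage) in WT and 320 CPM in KO cells of the Rag1 stage and at 447 and 581 CPM in the Ms4a4b stage. A 3′ count outside the deleted exon does not check the deletion, so the genotypes rest on the labels. The summed level of the 6 mature single-positive markers was 3602 CPM in WT and 5271 CPM in KO cells of the Ms4a4b stage, and 1076 and 805 CPM in the Itm2a stage. Ribosomal protein genes took 30.8% of the UMIs of the Ms4a4b stage in WT and 21.9% in KO, and 24.0% and 17.6% in the Itm2a stage. For this reason each ratio below is given relative to the median gene of its comparison, and the part of these values in the Rab results was not tested.

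All 6 functional groups of Rab genes were present in thymocytes, and the most abundant members serve general membrane traffic. By UMIs over all cells, Rab2a (Golgi to endoplasmic reticulum transport, 14501 UMIs) came first, before Rab14 (endosome recycling, 12988), Rab11b (recycling endosome, 9633), Rab10 (exocytic and recycling carriers, 8403) and Rab8a (exocytosis and cilium, 8019). These are counts of transcript ends and were not divided by gene length. By group, the 10 recycling and plasma membrane Rabs held 50753 UMIs, the 11 endoplasmic reticulum and Golgi Rabs 35674, the 5 early endosome Rabs 28036, the 6 late endosome and lysosome Rabs 16768, the 6 Rabs of regulated secretion 4311, and the 3 others 2035.

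The summed level of the 41 genes differed little between the libraries in DP cells and more in single-positive cells. It was 2292 CPM (interval 2264 to 2321) in WT and 2356 CPM (2332 to 2381) in KO cells of the Rag1 stage, and 2288 CPM in WT and 2365 CPM in KO cells of the Cd5 stage. In the Itm2a stage it was 1816 CPM (1769 to 1865) in WT and 2175 CPM (2109 to 2243) in KO. In the Ms4a4b stage it was 1671 CPM (1619 to 1724) in WT and 2171 CPM (2110 to 2232) in KO. The WT cells thus went from their highest to their lowest level along the 4 stages, while the KO cells stayed within a narrower range. These sums are not relative to the median gene, which shifted in the same directions. Its Ms4a4b over Rag1 ratio was -0.42 in WT and -0.21 in KO (log2). Its KO over WT ratio was 0.16 in the Itm2a stage and 0.24 in the Ms4a4b stage. The pattern of the sums is therefore no result about Rab genes alone. More cells of one kind within a stage and more RNA of a gene per cell cannot be told apart in such sums. Per cell the sum was 11.7 Rab UMIs in WT and 12.4 in KO cells of the Ms4a4b stage, out of 7014 and 5724 UMIs of all genes. In the Itm2a stage it was 11.6 and 13.0 Rab UMIs, out of 6371 and 5955. In proliferating cells the sum was 1766 CPM in WT and 1775 CPM in KO, and ribosomal protein genes took 18.9% and 19.3% of the UMIs. The part of the totals per cell and of the ribosomal share in these sums was not tested.

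**Figure D1:**
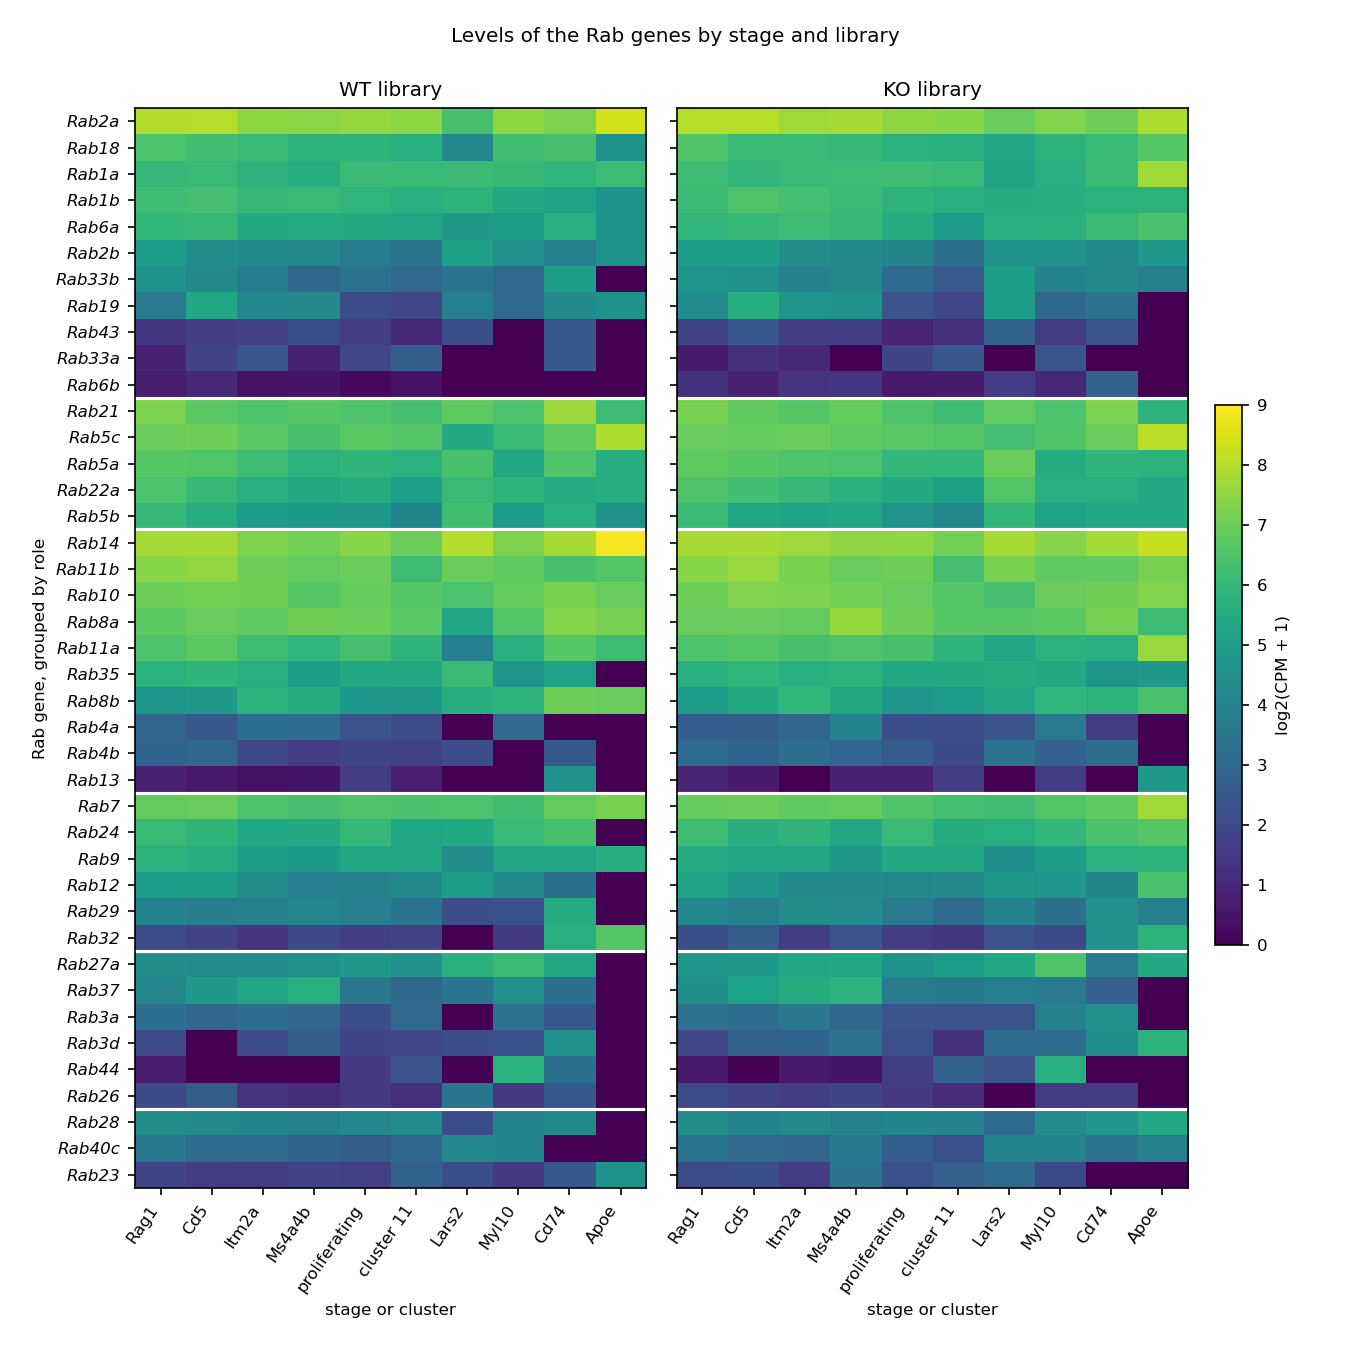
Heat map of log2(CPM + 1) for the 41 Rab genes (rows, grouped by role and ordered by UMIs, with white lines between the groups of endoplasmic reticulum and Golgi, early endosome, recycling and plasma membrane, late endosome and lysosome, regulated secretion, and others) in 10 stages or clusters (columns) of the WT (left) and KO (right) library. Rab2a and Rab14 are bright in every column, and Rab44 is brightest in the Myl10 column (52.8 CPM in WT and 50.5 CPM in KO).

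From the Rag1 to the Ms4a4b stage, a few Rabs of exocytosis and recycling were higher and an endosomal Rab was lower in both libraries. A gene was counted when it lay 1.5-fold or more from the median gene in the same direction in both libraries. Of 32 Rab genes with enough UMIs, 4 were higher (Rab37, Rab8b, Rab8a and Rab4a), where 16.4% of all genes were, and 1 was lower (Rab12), where 14.1% of all genes were. Both shares lay under those of all genes, so the counts are no result about Rabs as a family. Without centring on the median gene, 1 was higher (Rab37) and 5 were lower (Rab12, Rab22a, Rab2b, Rab5b and Rab9). Without the cells that held a UMI of the gamma-delta T cell list, an alternative chosen after the values were seen, 3 were higher, since Rab4a then lay at 0.29 relative to the median gene in WT (12 UMIs in the Ms4a4b stage), and the 1 lower gene was Rab2b in place of Rab12 (-0.57 in WT and -0.69 in KO). The clusters were made from these same genes, so the stages are described and not tested against each other. These ratios use the same sums of the Rag1 and Ms4a4b stages as the comparisons between the libraries given later, so both kinds share their values. The Rab median was -0.54 in WT, against -0.42 for all genes, and -0.16 in KO, against -0.21 for all genes (log2). Among the 35 Rab genes with enough UMIs in the 4 stages of each library, the highest stage was the same in both libraries for 23 and the lowest stage for 16.

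Rab37, a Rab of secretory granules, had the highest Ms4a4b over Rag1 ratio of the counted genes in WT and the next after Rab4a (1.72) in KO. It stood at 16.7, 28.3, 39.0 and 49.0 CPM in the Rag1, Cd5, Itm2a and Ms4a4b stages of WT and at 21.3, 36.0, 46.8 and 53.8 CPM in those of KO. Its level was higher at each later stage in both libraries, and the Ms4a4b over Rag1 ratio relative to the median gene was 1.97 in WT and 1.55 in KO (log2). The Myl10 cluster had 22.6 CPM in WT and 12.1 CPM in KO, from 12 UMIs in each. On the opposite strand its gene (chr11:115091431-115162236 on GRCm38, plus strand) overlaps Cd300lf.

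Rab8a and Rab8b, close paralogs that carry exocytic vesicles, had their highest levels after the DP stage, and their balance differed between stages. Rab8b stood at 25.3 CPM in WT and 29.5 CPM in KO cells of the Rag1 stage, and at 53.7 and 61.6 CPM in the Itm2a stage, its highest of the 4 stages in each library. Rab8a stood at 104 CPM in WT and 119 CPM in KO cells of the Rag1 stage, at 110 and 112 CPM in the Itm2a stage, and at 131 and 190 CPM in the Ms4a4b stage. Rab8b therefore made up 19.6% (275 of 1406 UMIs, interval 17.5 to 21.7) of the pair in WT and 19.8% (18.2 to 21.5) in KO cells of the Rag1 stage. Its share was 32.8% (28.7 to 37.1) in WT and 35.5% (30.3 to 40.9) in KO cells of the Itm2a stage. In the Ms4a4b stage the share was 26.3% (22.1 to 30.8) in WT and 18.4% (15.2 to 21.9) in KO, where the intervals did not overlap. In the Cd5 stage it was 18.7% (14.4 to 23.8) in WT and 26.7% (23.1 to 30.6) in KO.

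Rab19, a Rab linked to the Golgi and plasma membrane, was highest in signalled DP cells. It stood at 12.1, 39.8, 17.4 and 18.9 CPM in the Rag1, Cd5, Itm2a and Ms4a4b stages of WT and at 19.3, 47.4, 25.5 and 23.8 CPM in those of KO. The Cd5 over Rag1 ratio was 1.76 in WT and 1.35 in KO relative to the median gene (log2). Both Cd5 clusters showed it, with 35.0 CPM in WT and 43.6 CPM in KO cells of cluster 5 and 49.8 and 54.9 CPM in cluster 9. Of the 32 Rab genes, Rab19 and Rab37 were the 2 counted as higher in the Cd5 than in the Rag1 stage in both libraries, where 8.16% of all genes were, and 0 as lower, where 8.76% of all genes were.

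The single gene counted as lower and others with lower levels after the DP stage are given next. Rab12, which acts in transport from recycling endosomes to lysosomes, had 29.8 CPM in WT and 35.2 CPM in KO cells of the Rag1 stage and 13.3 and 19.0 CPM in the Ms4a4b stage. Rab5b, an early endosome Rab, had 62.0 and 65.9 CPM in the Rag1 stage and 30.8 and 36.7 CPM in the Itm2a stage. Rab22a, which acts between early and recycling endosomes, had 86.1 and 88.0 CPM in the Rag1 stage and 42.9 and 51.6 CPM in the Ms4a4b stage, where its relative ratios of -0.58 and -0.55 kept it from being counted. In the Itm2a over Rag1 comparison, 2 of 32 Rab genes were higher in both libraries (Rab8b and Rab37, where 15.8% of all genes were) and 2 lower (Rab33b and Rab5b, where 14.5% of all genes were). Between the Itm2a and Ms4a4b stages 0 of 28 were counted in either direction, where 7% of all genes were higher and 3.93% lower.

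**Figure D2:**
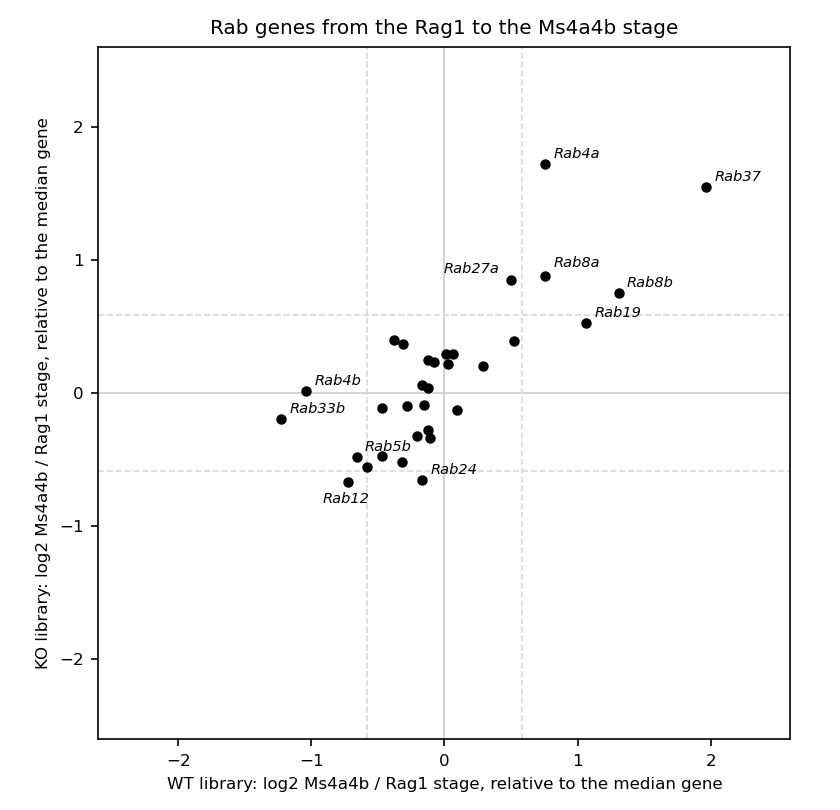
Log2 ratio of the Ms4a4b over the Rag1 stage for 32 Rab genes, relative to the median gene, in the WT library (horizontal axis) and the KO library (vertical axis). Dashed lines mark 1.5-fold. Rab37, Rab8b, Rab8a and Rab4a lie past the lines on the upper right, Rab12 on the lower left, and Rab33b and Rab4b lie at -1.23 and -1.04 in WT and at -0.19 and 0.01 in KO.

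Between the libraries, Rab levels in DP cells were close. In the Rag1 stage 37 Rab genes had at least 50 UMIs over both libraries, their median KO over WT ratio was 0.04 (log2), and the median of all 11171 genes was 0.05. Only Rab19 was 1.5-fold or more above the median gene, where 2.73% of all genes were, and 0 were that far below, where 1.4% were. The interval lay wholly above the median gene for 4 members (Rab19, Rab37, Rab27a and Rab8a), where it did so for 9.63% of all genes, and wholly below it for 1 (Rab9), where it did so for 10.9%. With 132 UMIs in WT and 296 in KO, the relative ratio of Rab19 was 0.62 (0.32 to 0.93). Its level was higher in KO in each of the 5 clusters of the stage, from 14.8 CPM in WT and 15.1 CPM in KO in cluster 4 to 11.8 and 22.1 CPM in cluster 0. Rab9, which returns mannose 6-phosphate receptors from late endosomes to the Golgi, lay the other way, with 53.6 CPM in WT and 45.04 CPM in KO. Its relative ratio was -0.30 (-0.46 to -0.13), and it was lower in KO in all 5 clusters, for example 60.03 CPM in WT and 47.7 CPM in KO in cluster 4. Its gene lies on the X chromosome.

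In the Cd5 stage the 28 Rab genes tested had a median of 0.04 against 0.03 for all 7969 genes. Rab8b was the 1 gene counted as higher, where 3.53% of all genes were, and 0 were lower, where 1.68% were. The interval lay above the median gene for 2 members (Rab8b and Rab2b), where it did so for 5.89% of all genes, and below it for 0, where it did so for 5.92%. Rab8b had 27.8 CPM in WT (53 UMIs) and 43.9 CPM in KO (150 UMIs), a relative ratio of 0.62 (0.17 to 1.11), and it was higher in KO in both clusters (27.2 and 41.0 CPM in cluster 5, 28.9 and 49.6 CPM in cluster 9). Rab2b, a Golgi Rab, came next with 20.9 CPM in WT and 31.6 CPM in KO (0.55, interval 0.02 to 1.12). The lowest was Rab24, linked to autophagy, with 58.7 and 48.2 CPM (-0.32, interval -0.67 to 0.04).

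In single-positive cells the Rab genes lay somewhat above the median gene in KO. In the Itm2a stage the median over 28 Rab genes was 0.25 against 0.16 for all 7759 genes, and 22 of the 28 lay above the median gene. Past the fold, 1 of the 28 was higher, where 3.25% of all genes were, and 0 were lower, where 5.7% were. The interval lay wholly above the median gene for 3 (Rab27a, Rab6a and Rab14), where it did so for 7.35% of all genes, and wholly below it for 0, where it did so for 10.9%. Rab6a, a Rab of retrograde Golgi transport, had 44.6 CPM in WT and 70.7 CPM in KO (0.51, interval 0.15 to 0.87). Rab14 had 151 and 204 CPM (0.28, interval 0.08 to 0.48). The lowest member was Rab12, with 20.6 CPM in WT and 18.6 CPM in KO (-0.30, interval -0.95 to 0.31).

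In the Ms4a4b stage the median over 29 Rab genes was 0.39 against 0.24 for all 7491 genes, and 18 of the 29 lay above the median gene. Here 3 were 1.5-fold or more higher (Rab33b, Rab27a and Rab4a), where 7.57% of all genes were, and 0 were lower, where 8.22% were. The interval lay wholly above the median gene for 7 members, where it did so for 12.8% of all genes, and wholly below it for 0, where it did so for 15.4%. The count of 3 became 1 (Rab27a) when the 6% of cells with the highest doublet scores were left out. It was also 1 (Rab27a) at a minimum of 100 UMIs. In both cases Rab33b and Rab4a dropped out because they lay under the minimum. Without the high doublet scores they had 49 and 48 UMIs, with relative ratios of 0.99 and 0.81, still past the fold. Without the cells that held a UMI of the gamma-delta T cell list the count was also 1, but this was Rab35 (0.65), as Rab27a then lay under the fold and Rab33b and Rab4a under 50 UMIs. Markers of DP cells were higher in KO in this stage, with the summed list of 6 at 1187 CPM in WT and 1432 CPM in KO, Rag1 at 88.9 and 184 CPM, Rag2 at 6.01 and 17.6 CPM, Arpp21 at 49.4 and 132 CPM and Cd4 at 121 and 179 CPM. Cd8a had 339 and 294 CPM and Cd8b1 582 and 624 CPM, and 0 of the 6 were at 0. In the Itm2a stage the list summed to 1183 CPM in WT and 1260 CPM in KO. The part of the DP markers in the results of the single-positive stages was not tested.

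Rab27a, which docks secretory and lytic granules at the plasma membrane, was past the fold in both single-positive stages. It was the 1 such gene when all cells were kept at the main settings. At cluster resolutions 1.8 and 2 it had 47 UMIs in the Itm2a stage, under the minimum of 50. Rab6a was the gene counted there instead. At the main settings Rab27a had 19.7 CPM in WT (60 UMIs) and 39.3 CPM in KO (74 UMIs) in the Itm2a stage, a relative ratio of 0.84 (0.33 to 1.36). In the Ms4a4b stage it had 21.9 CPM (51 UMIs) and 40.1 CPM (91 UMIs), a relative ratio of 0.63 (0.13 to 1.16). In DP cells the values were nearer, with 20.9 CPM in WT and 25.8 CPM in KO in the Rag1 stage and 19.4 and 28.1 CPM in the Cd5 stage. WT levels therefore hardly moved along the 4 stages, while KO levels were higher in single-positive than in DP cells. The summed gamma-delta T marker list was also higher in KO, at 206 CPM in WT and 386 CPM in KO cells of the Ms4a4b stage and at 36.4 and 69.1 CPM in the Itm2a stage, with 0 of its 5 markers at 0. In the Itm2a stage Trdc (16.4 and 41.5 CPM), Trgc1 and Trgc2 were higher in KO. Trgc4 (6.23 and 3.72 CPM) and Sox13 (3.60 and 3.19 CPM) were lower there. The part of this list in the Rab27a values was not tested. Cells with a UMI of that list were then left out. These were 47 WT and 39 KO cells in the Itm2a stage and 48 and 55 in the Ms4a4b stage. Trdc also had 338 UMIs in WT and 480 in KO in the Rag1 stage, so this choice does not single out gamma-delta cells. Without these cells Rab27a stood at 20.03 CPM in WT and 37.4 CPM in KO in the Itm2a stage. In the Ms4a4b stage it stood at 20.9 and 33.2 CPM. Its relative ratio was then 0.75 in the Itm2a stage and 0.40 in the Ms4a4b stage, under the fold. The highest Rab27a level among T lineage cells was in the Myl10 cluster, whose cells carry gamma-delta and double-negative markers, with 67.9 CPM in WT and 89.8 CPM in KO. The gene lies at chr9:73044854-73097629 on GRCm38 (plus strand), and the annotation has Gm27186 on the same strand within it.

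Rab33b, a medial Golgi Rab that also binds the autophagy protein Atg16l1, had the widest ratio in mature cells. It had 7.30 CPM in WT (17 UMIs) and 18.1 CPM in KO (41 UMIs) in the Ms4a4b stage, a relative ratio of 1.05 (0.22 to 1.98). In the Rag1 stage it had 23.5 CPM in WT and 24.2 CPM in KO, and in the Itm2a stage 13.1 and 14.9 CPM. It thus stood lower in single-positive than in DP cells of both libraries, and WT cells of the Ms4a4b stage held the lowest value of the 4 stages. Of the DP markers given above, Cd8a was higher in WT than in KO cells of that stage and the others were lower. Their part in the Rab33b values was not tested. Its paralog Rab33a was rare, with 2 UMIs in WT and 0 in KO in the Ms4a4b stage, and Gm37968 overlaps Rab33b on the same strand.

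Among recycling Rabs, Rab4a and Rab35, which return receptors quickly from early endosomes to the surface, were also higher in KO cells of the Ms4a4b stage. Rab4a had 8.59 CPM in WT (20 UMIs) and 15.4 CPM in KO (35 UMIs), a relative ratio of 0.59 whose interval (-0.22 to 1.48) held the median gene. Rab35 had 31.8 CPM (74 UMIs) and 56.0 CPM (127 UMIs), just under the fold at 0.58 (0.16 to 1.01), while in the Itm2a stage it had 49.5 CPM in WT and 49.4 CPM in KO. Rab11a, of the recycling endosome, had 59.3 and 88.7 CPM (0.34, interval 0.02 to 0.67), and its share of the Rab11a and Rab11b pair was 34.1% (29.5 to 38.9) in WT and 42.4% (37.9 to 47.0) in KO. The intervals of these shares overlapped, and in the Rag1 stage the Rab11a share was 34.2% and 33.8%. Rab8a (0.30, interval 0.08 to 0.51), the early endosome Rab5a (0.44, interval 0.11 to 0.78) and the late endosome Rab7 (0.31, interval 0.03 to 0.59) were the other members whose interval lay above the median gene. Rab5a had 53.7 CPM in WT and 86.0 CPM in KO, and Rab7 79.9 and 116 CPM.

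Other members were lower in KO or level with the median gene in the Ms4a4b stage. Rab24 had 44.7 CPM in WT and 40.1 CPM in KO (-0.39, interval -0.81 to 0.03) and Rab8b 46.8 and 42.8 CPM (-0.37, interval -0.78 to 0.04). Rab9 had 28.8 and 27.8 CPM, and the Golgi Rab1b 65.7 and 68.4 CPM. Rab21, an early endosome Rab that binds integrins, lay at the median gene, with 99.6 and 117 CPM (-0.01, interval -0.27 to 0.25). Under the minimum of 50 UMIs, Rab23, known from cilia and Hedgehog signalling, had 6 UMIs in WT (2.58 CPM) and 23 in KO (10.1 CPM), and Rab4b had 5 (2.15 CPM) and 15 (6.62 CPM). Rab4b and Rab23 were the 2 of 34 members past the fold in proliferating cells, where 2.53% of all genes were higher and 1.61% (with 0 members) lower. There Rab4b had 2.64 CPM in WT (20 UMIs) and 5.17 CPM in KO (48 UMIs), and Rab23 had 2.24 CPM (17 UMIs) and 3.77 CPM (35 UMIs).

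**Figure D3:**
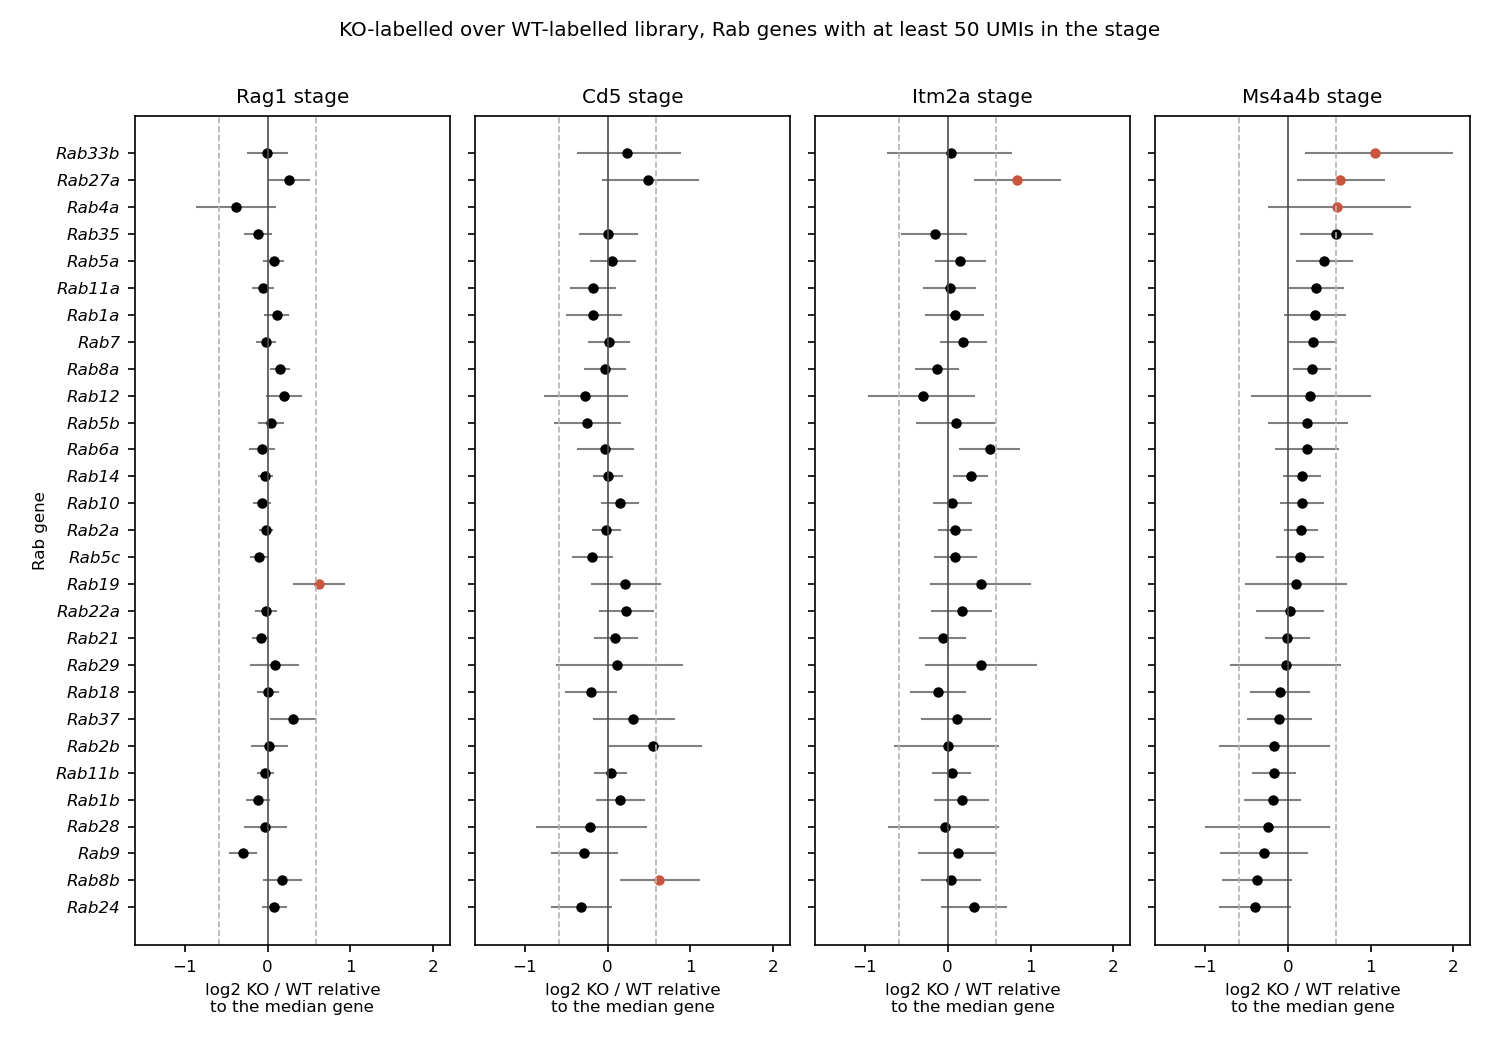
Log2 ratio of the KO over the WT library relative to the median gene (horizontal axis, points with exact 95% intervals for counting error) for Rab genes with at least 50 UMIs in the stage (rows, ordered by the Ms4a4b stage). Dashed lines mark 1.5-fold and red points lie past it. Rab27a is red in the Itm2a and Ms4a4b panels (0.84 and 0.63), Rab19 in the Rag1 panel and Rab8b in the Cd5 panel (0.62 each).

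**Figure D4:**
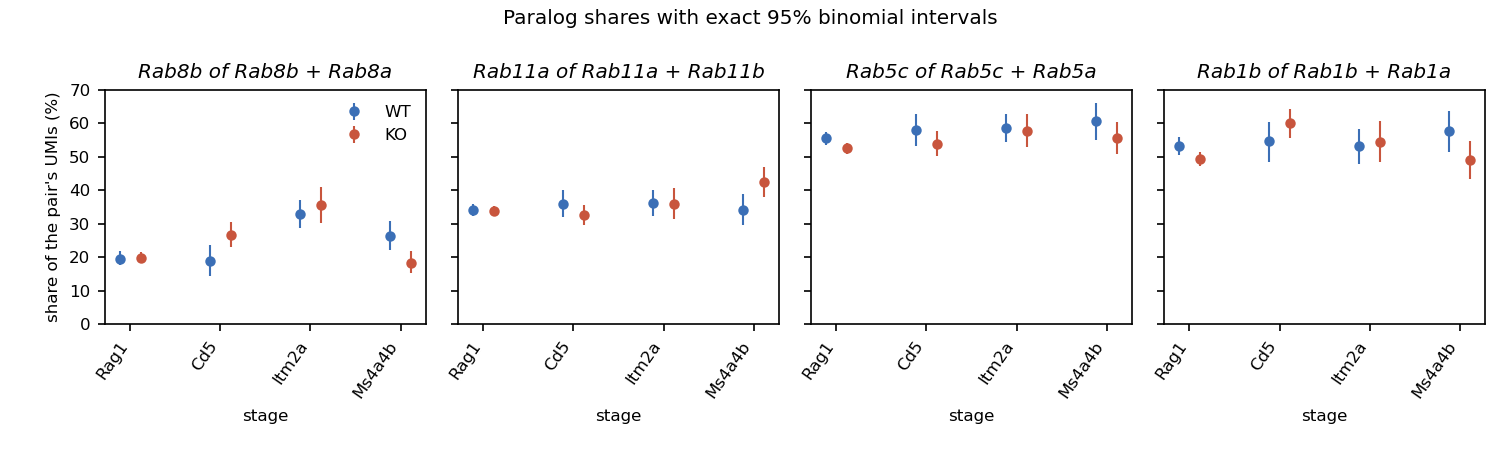
Share of a paralog pair's UMIs (percent, vertical axis) taken by Rab8b, Rab11a, Rab5c and Rab1b in 4 stages (horizontal axis) of the WT (blue) and KO (red) library, with exact 95% binomial intervals. The Rab8b share is highest in the Itm2a stage of both libraries (32.8% and 35.5%), and the Rab11a share is highest in KO cells of the Ms4a4b stage (42.4%). That interval (37.9 to 47.0) overlaps the one of WT cells of the stage (29.5 to 38.9).

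Several Rabs marked the small clusters outside the DP to single-positive path. Rab44, a large Rab with a calcium-binding region known from granule release, had 52.8 CPM in WT (28 UMIs) and 50.5 CPM in KO (50 UMIs) in the Myl10 cluster. In the Rag1 stage it had 0.644 CPM in WT and 0.521 CPM in KO, and in the Ms4a4b stage 0 and 1 UMI. The 4 stages held 7 of its 63 UMIs in WT and 10 of its 104 in KO, so further UMIs lay in other clusters. Its Myl10 level was 5.81 times the next highest stage or cluster in WT and 8.25 times in KO. Of 32 Rab genes, 3 were higher in the Myl10 than in the Rag1 stage in both libraries (Rab27a, Rab8b and Rab40c, where 16.8% of all genes were) and 3 lower (Rab5a, Rab5b and Rab29, where 14.6% were). For Rab27a the ratio was 1.88 in WT and 1.98 in KO relative to the median gene (log2). Rab32, known from lysosome-related organelles and macrophages, was highest in the Apoe cluster, with 94.6 CPM in WT and 56.1 CPM in KO from 4 UMIs in each, and stood at 50.01 and 22.3 CPM in the Cd74 cluster from 11 UMIs in each. The Cd74 cluster differed in makeup between the libraries, with the 5 B cell markers at 3664 CPM in WT and 38514 CPM in KO and the 7 macrophage markers at 3296 and 833 CPM. For this reason no ratio between the libraries is read there, including that of Rab8b (127 and 54.7 CPM).

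**Figure D5:**
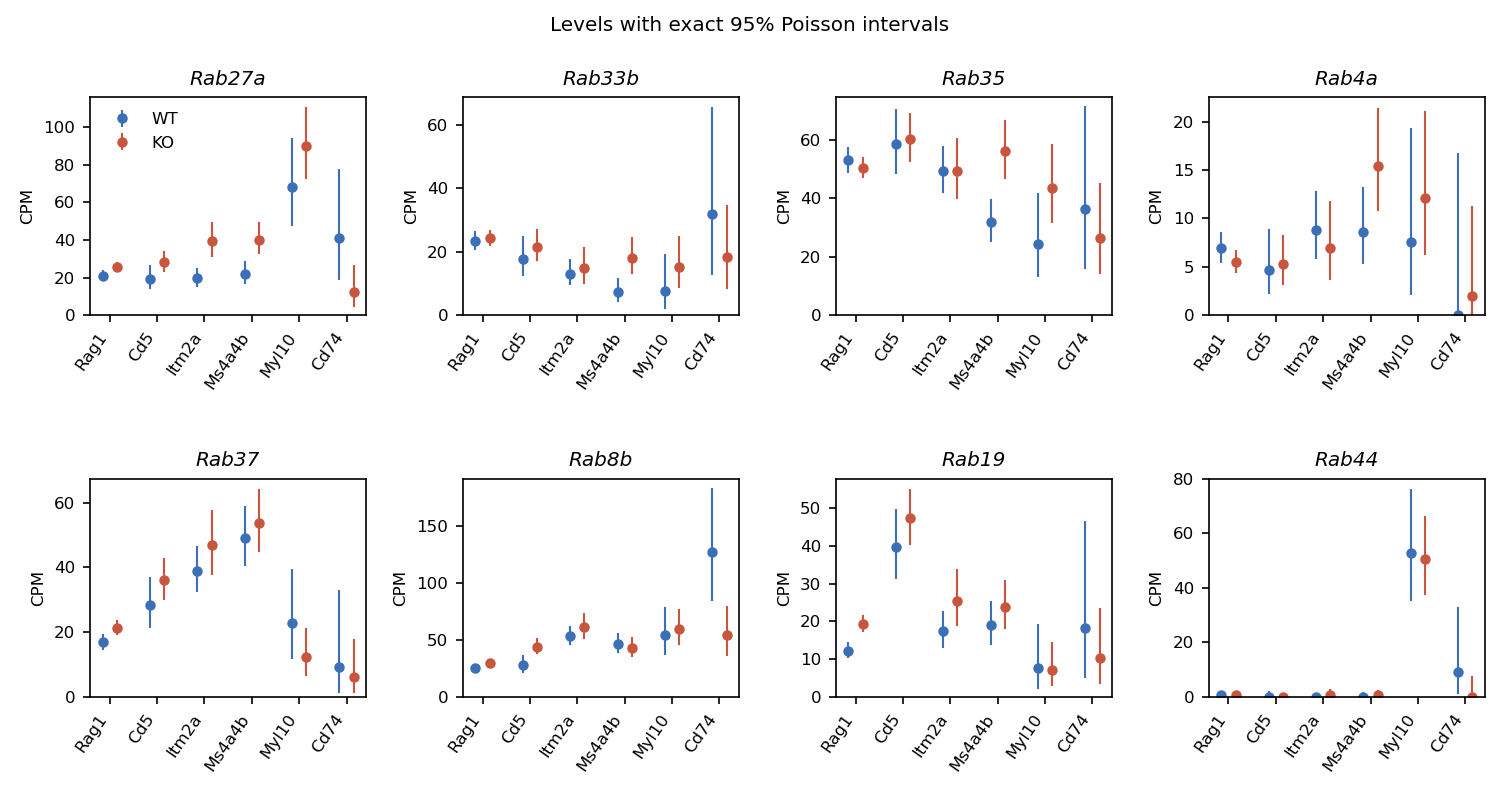
Levels (CPM, vertical axis) of 8 Rab genes in 6 stages or clusters (horizontal axis) of the WT (blue) and KO (red) library, with exact 95% Poisson intervals. Rab37 steps up from the Rag1 to the Ms4a4b stage in both libraries, Rab19 is highest in the Cd5 stage (39.8 and 47.4 CPM), and Rab44 is highest in the Myl10 cluster.

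The remaining members are given by their counts and levels. Rab43, Rab33a, Rab6b, Rab13, Rab32, Rab26, Rab44, Rab3d and Rab23 had 58 to 255 UMIs over all cells, and Rab3a, Rab40c, Rab4a and Rab4b 373 to 571. Rab3d, of regulated exocytosis, had 0 UMIs in WT and 21 in KO in the Cd5 stage, but 34 and 43 UMIs in the Rag1 stage (3.13 and 2.80 CPM). Rab2a had 249 CPM in WT and 254 CPM in KO in the Rag1 stage and 171 and 225 CPM in the Ms4a4b stage. Rab1a, of transport from the endoplasmic reticulum to the Golgi, had 63.4 and 70.7 CPM in the Rag1 stage and 48.1 and 71.0 CPM in the Ms4a4b stage. Rab18, of lipid droplets and the endoplasmic reticulum, had 87.5 and 90.8 CPM in the Rag1 stage and 56.7 and 62.6 CPM in the Ms4a4b stage. Rab11b had 167 and 169 CPM in the Rag1 stage and 115 and 120 CPM in the Ms4a4b stage, and the early endosome Rab5c 124 and 120 CPM, then 82.9 and 108 CPM. Rab10 had 129 and 127 CPM in the Rag1 stage and 101 and 135 CPM in the Ms4a4b stage, and Rab10os on its opposite strand had 66.5 and 67.4 CPM, then 37.8 and 56.0 CPM. Rab10 and Rab5c thus lay further apart between the libraries in the Ms4a4b than in the Rag1 stage, and Rab11b was close in both. Rab28, linked to cilia, had 20.7 and 21.0 CPM in the Rag1 stage and 14.2 and 14.1 CPM in the Ms4a4b stage. Rab29, linked to lysosomes and the Golgi, had 15.7 and 17.2 CPM in the Rag1 stage and 16.7 and 19.4 CPM in the Ms4a4b stage. Of the 41 genes, 12 have an annotated gene overlapping them on the same strand and 15 on the opposite strand, and their counts can include such neighbours.

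The machinery that acts on Rabs was followed in 4 lists: 8 GDI and prenylation genes, 43 GEFs, 37 GAPs and 40 effectors. In the Ms4a4b stage the list medians of the KO over WT ratio were 0.68 over 7 GDI and prenylation genes, 0.21 over 28 GEFs, 0.50 over 18 GAPs and 0.31 over 23 effectors (log2), beside 0.24 for all genes. Past the fold in that stage were 1 GDI and prenylation gene higher and 0 lower, 1 GEF higher and 0 lower, 0 GAPs higher and 2 lower, and 2 effectors higher and 3 lower, where 7.57% of all genes were higher and 8.22% lower. In the Itm2a stage the medians were 0.28 over 7, 0.11 over 31, 0.22 over 21 and 0.34 over 24 genes, beside 0.16 for all genes, and 1, 0, 1 and 2 genes were higher and 0, 2, 1 and 0 lower, where 3.25% of all genes were higher and 5.7% lower. Rabggta, the alpha subunit of the enzyme that prenylates Rabs, had 7.30 CPM in WT (17 UMIs) and 21.2 CPM in KO (48 UMIs) in the Ms4a4b stage, a relative ratio of 1.27 (0.48 to 2.19). In the Itm2a stage it had 9.83 and 17.0 CPM. Its level was higher in KO in both stages, while the interval in the Itm2a stage held the median gene (-0.13 to 1.40).

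Madd, a GEF for Rab3 and Rab27, lay in opposite directions in the single-positive stages, a difference that was not tested. It had 51.8 CPM in WT and 34.5 CPM in KO in the Itm2a stage (-0.73, interval -1.18 to -0.31) and 89.7 and 160 CPM in the Ms4a4b stage (0.59, interval 0.34 to 0.85). Sytl2, a Rab27 effector of granule docking, had 15.9 CPM in WT and 34.0 CPM in KO in the Ms4a4b stage (0.85, interval 0.28 to 1.47). Tbc1d4, a GAP for Rab8, Rab10 and Rab14, was lower in KO from the signalled DP stage onward. It had 34.4 CPM in WT and 32.3 CPM in KO in the Rag1 stage, 35.1 and 18.4 CPM in the Cd5 stage (-0.96, interval -1.48 to -0.44), 37.7 and 23.4 CPM in the Itm2a stage (-0.83, interval -1.38 to -0.33) and 45.9 and 22.1 CPM in the Ms4a4b stage (-1.29, interval -1.81 to -0.80). Mical1, an effector that acts on actin, had 31.5 CPM in WT and 61.1 CPM in KO in the Itm2a stage (0.80, interval 0.40 to 1.21). Micall1, an effector of recycling endosomes, had 11.2 and 25.6 CPM in the Ms4a4b stage (0.94, interval 0.27 to 1.69). Rab11fip1, an effector of Rab11, was lower in KO at both ends of the path, with 10.3 and 6.64 CPM in the Rag1 stage and 15.0 and 9.71 CPM in the Ms4a4b stage.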

How the data were processed

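The authors dissociated whole thymus, lysed red cells and made droplet 3′ libraries. The submitters' processing notes name Cell Ranger 3.0.2, STAR, Seurat and the mm10 build, and the annotation is not given in the sources used here. The authors had kept cells with 200 to 6000 genes and at most 50000 reads. The deposited values are raw UMI counts of each gene in each cell. A second deposited table gives each cell's clusters at resolutions 1.5, 1.8 and 2. A mitochondrial percent in it is 0 throughout and was not used, and mitochondrial percentages were computed from the counts. The cell names carry WT or KO, which gave the library, and spell the gene Cdc45.

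UMIs were summed per stage and library, and CPM is the UMI count per 1e+06 of that sum. The stages were the deposited clusters at resolution 1.5 (19 clusters). Log2 ratios were taken between CPM after adding 0.5 UMIs to each sum, wherever a gene reached 50 UMIs in the cells compared, and relative to the median of those genes. A gene was counted at 1.5-fold or more. Intervals are exact Poisson, conditional binomial or Clopper-Pearson intervals at 95% and cover counting error only, which is why genes with few UMIs carry wide intervals. With 1 library per genotype, no test was made. The computation was checked on simulated counts. Scrublet, run in scanpy 1.11.5, marked 2 WT cells and 0 KO cells as doublets and so did not work by its own threshold. Doublets were left in, and the 6% of cells with the highest scores per library (332 and 392 cells) were left out as an alternative.

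The members, the lists and the stages were chosen with earlier results of these data known. Values are named by rule: in each stage the 5 members with the largest rise and fall, the 10 highest and 5 lowest for Ms4a4b over Rag1 in WT, members 2-fold or more above every other cluster in the Myl10, Cd74 or Apoe cluster, and paralogs. For the regulators the rule took 3 in each direction per list in the single-positive stages, and only some of these are given. Past the fold but not given by value were Tbc1d17, Rilpl2 and Exoc6, lower in KO in the Ms4a4b stage. In the Itm2a stage these were Ric1, lower in KO, and Tbc1d22a and Vps41, higher in KO. Regulators outside these stages, Rab23 and Rab4b, and the cluster-level values were chosen after their values were seen. Positions and overlaps come from GENCODE vM21 on GRCm38, on which all 41 members were found, and promoters from RefSeq on GRCm38.p6. The letters CCGGAAG and CACCTG were also searched and stood in 9.30% and 16.3% of the Rab windows and 8.86% and 20.2% of all windows. As alternatives, totals leaving out ribosomal and mitochondrial genes, TMM factors (edgeR 4.0.16), DESeq2 1.42.0 size factors, means over cells, cell filters, the other resolutions, other minimums and folds, the ratio without centring, and 1 added to each sum were tried.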

Additional observations from a re-analysis of the deposited data

Results flagged for a closer look

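Rab4a and Rab8b went in opposite directions between the libraries at different stages, 1.5-fold or more one way and at least 1.2-fold the other. Relative to the median gene, Rab4a was at -0.38 (log2, KO over WT) in the Rag1 stage, with 6.90 CPM in WT and 5.47 CPM in KO, and at 0.59 in the Ms4a4b stage, with 8.59 and 15.4 CPM. Rab8b was at 0.62 in the Cd5 stage, with 27.8 and 43.9 CPM, and at -0.37 in the Ms4a4b stage, with 46.8 and 42.8 CPM. With 1 library per genotype the difference between stages was not tested. The intervals of both Rab4a ratios and that of Rab8b in the Ms4a4b stage (-0.78 to 0.04) held the median gene.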

How the results depend on the processing

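No paired analysis was possible because each genotype has 1 library, and for the same reason no library could be left out. Of the medians and counts recomputed, 303 stayed within a set limit and 27 counts moved further. The limit was 1.5 times for counts and, for medians, the median half-width of the single genes' intervals. For the Rab genes this half-width was 0.35 in the Itm2a and 0.38 in the Ms4a4b stage. Their median lay only 0.09 and 0.16 from the median gene there, so a median that stayed says little about that distance. A count that stayed can hold other genes. At resolutions 1.8 and 2 the Itm2a stage had Rab6a in place of Rab27a. Without the highest doublet scores the Cd5 stage had Rab2b in place of Rab8b. Rab4a left the Ms4a4b count without the 5% of cells with most UMIs, at resolutions 1.8 and 2, and with 1 added to each sum. The counts of Rab genes past the fold between the libraries were 1, 1, 1 and 3 in the Rag1, Cd5, Itm2a and Ms4a4b stages, and 4 were higher and 1 lower from the Rag1 to the Ms4a4b stage. At a smaller fold (0.32 on the log2 scale) they became 3, 3, 4 and 9, with 7 higher and 4 lower, and at a fold of 2 they became 0, 0, 0 and 1, with 1 higher and 0 lower. At a minimum of 20 UMIs they were 2, 3, 3 and 5, and at 100 UMIs the Ms4a4b stage had 1. Without centring on the median gene the Itm2a stage had 2 and the Ms4a4b stage 5, with 1 higher and 5 lower from the Rag1 to the Ms4a4b stage. With means over cells the Cd5 and Itm2a stages had 2 each, and without the 5% of cells with most UMIs the Itm2a stage had 2. Without the highest doublet scores the Ms4a4b stage had 1, as Rab33b and Rab4a then had 49 and 48 UMIs, and 2 were lower along maturation. Without cells with a gamma-delta list UMI, an alternative chosen after seeing the data, the Ms4a4b stage had 1 (Rab35), as Rab27a then lay under the fold and Rab33b and Rab4a under 50 UMIs, and the Ms4a4b over Rag1 ratio of Rab4a in WT turned from 0.34 to -0.14 before centring. Of the single ratios, 755 stayed within their interval, 14 moved further and 1 reversed. The Rab27a ratio before centring ranged over the alternatives from 0.83 to 1.41 in the Itm2a stage and from 0.61 to 0.94 in the Ms4a4b stage.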
